A study of Homo sapiens with 4 samples.

Results

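The G2 and mitosis genes described here are 59 genes whose products prepare a cell for division and carry it through mitosis. They were taken by gene symbol from a list given for the series, and each symbol was found once among the 58825 genes of the deposited table. RNA was sequenced from ARP1, an established cell line of human multiple myeloma, the cancer of antibody-producing plasma cells. There were 2 libraries of RFWD2 overexpression and 2 of wild type, numbered 1 and 2 within each group in their titles. RFWD2 is the older symbol of COP1, an E3 ubiquitin ligase whose known targets for degradation include transcription factors such as JUN. The labels used here name no agent, time point, vector, promoter or clone, so whether an overexpression library came from a pool or a clone is unknown. The sources call the libraries biological repeats but do not say whether these were separate cultures, so p-values reflect only how these libraries scatter, which may be technical.

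In a dividing cell, the kinase CDK1 bound to cyclin A or cyclin B starts mitosis, and PLK1 and the Aurora kinases then build the spindle and attach chromosomes to it. The spindle checkpoint holds the anaphase-promoting complex (APC/C) back until every kinetochore is attached, and CDC20 then lets the APC/C mark cyclin B for destruction. The genes of this programme are transcribed in waves, late ones through the MuvB complex and FOXM1, and their transcripts are known markers of proliferation in myeloma as in other cancers.

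The promoters of these genes share sequence features that were not part of the rule for listing the genes. RefSeq (GRCh38.p14) gave a promoter window, from 250 bases before the start to 50 after it, for 50 of the 59 genes. Those without one are ANP32E, AURKA, BIRC5, CDCA2, FOXM1, HMGB2, TPX2, TTK and UBE2C. The cell cycle genes homology region (CHR) is the element that MuvB complexes bind, and its letters TTTGAA or TTCGAA lay on either strand in 37 of the 50 windows, or 74%, against 16.8% of all 27305 promoters of the same length. The letters CCAAT, bound by NF-Y, lay on either strand in 36 windows, or 72%, against 35.6% of all promoters. Both kinds of letters were in 29 windows, or 58%, against 6.63% of all promoters, and at least 2 CCAAT matches were in 24, or 48%, against 11.1%. E2F letters (TTTCCCGC, TTTCGCGC, TTTGCCGC or TTTGGCGC on either strand) were in 3 windows, or 6%, against 3.27% of all promoters. The windows of 47 further mitotic genes were like those of the members, with CHR letters in 68.1% and CCAAT in 68.1%. Those of 33 S phase genes held CCAAT about as often, in 63.6%, but CHR letters in 6.06% and E2F letters in 48.5%. Overlapping matches were each counted, and a match describes letters, not binding.

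Promoters of 4 members are printed because their genes stand for the late programme and differed from each other in how their libraries compared. Each is the 250 bases before the RefSeq start, read 5′ to 3′ along the transcript, with CHR and CCAAT letters of either strand in capitals (TTCAAA and ATTGG are those letters on the other strand). CCNB2 (chr15:59104896-59105145, plus strand), which encodes cyclin B2, has 4 CCAAT matches and CHR letters 29 bases before the start. CDC20 (chr1:43358731-43358980, plus strand) has CHR letters 178 and 65 bases before the start. TOP2A (chr17:40417897-40418146, minus strand), which encodes the topoisomerase that untangles sister chromosomes, has 4 CCAAT matches and CHR letters 194 and 151 bases before the start. CENPF (chr1:214602945-214603194, plus strand), which encodes a kinetochore protein of G2 and mitosis, has its CHR letters in the 50 bases past the start, so the printed stretch holds CCAAT letters alone.
CCNB2: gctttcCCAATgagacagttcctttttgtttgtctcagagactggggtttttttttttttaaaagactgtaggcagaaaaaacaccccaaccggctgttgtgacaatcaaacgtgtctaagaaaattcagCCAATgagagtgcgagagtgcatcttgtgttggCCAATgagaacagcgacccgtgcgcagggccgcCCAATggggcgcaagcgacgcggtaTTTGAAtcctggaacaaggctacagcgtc
CDC20: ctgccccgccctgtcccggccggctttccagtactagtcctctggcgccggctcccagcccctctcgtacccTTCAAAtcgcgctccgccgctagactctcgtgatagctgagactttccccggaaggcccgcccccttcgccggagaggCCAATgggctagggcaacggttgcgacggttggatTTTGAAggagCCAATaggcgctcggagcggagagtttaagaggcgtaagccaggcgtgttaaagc
TOP2A: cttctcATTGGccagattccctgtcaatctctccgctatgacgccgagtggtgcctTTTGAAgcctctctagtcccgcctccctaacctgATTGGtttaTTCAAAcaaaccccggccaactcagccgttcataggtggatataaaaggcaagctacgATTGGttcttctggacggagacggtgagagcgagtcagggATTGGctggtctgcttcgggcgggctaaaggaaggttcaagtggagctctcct
CENPF: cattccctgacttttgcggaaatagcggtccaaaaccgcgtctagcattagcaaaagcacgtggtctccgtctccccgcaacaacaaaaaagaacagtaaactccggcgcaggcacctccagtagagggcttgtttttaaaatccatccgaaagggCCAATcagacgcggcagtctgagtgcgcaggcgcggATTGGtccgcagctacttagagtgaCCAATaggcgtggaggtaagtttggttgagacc

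The measured cells carried the transcripts of their label. The 9 plasma cell markers ranged from 7.30 to 1139 FPKM (fragments scaled to transcript length and library size), and none was at 0 in every library. T cell, myeloid, stromal and erythroid markers reached at most 1.29 FPKM and epithelial markers 3.32 FPKM. RFWD2 stood at 13.5 and 13.9 FPKM in overexpression libraries 1 and 2, against 5.99 and 8.93 FPKM in wild type libraries 1 and 2. Library totals ran from 62143098 to 70713792 estimated counts. Over 18873 genes, the Pearson correlation of log2 CPM, counts relative to the size of their library, was 0.96 across genotypes at number 2 and 0.95 at number 1, against 0.93 within overexpression and 0.95 within wild type, so libraries of the same number were at least as alike as those of the same genotype. For that reason the overexpression and wild type libraries are also compared within each number.

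None of the 59 genes was called changed between RFWD2 overexpression and wild type by the test used. All 59 passed the filter on low counts, with at least 208 estimated counts in every library. By edgeR's quasi-likelihood test with Benjamini-Hochberg adjustment over 18873 genes, 0 were called higher and 0 lower, against a background of 0% of all genes in each direction. As no gene was called, the overexpressed gene RFWD2 was not called either. At an unadjusted p under 0.05, edgeR gave 0 members, against 1.83% of all genes, and the smallest member p was 0.117, for FOXM1. DESeq2 called 0 members, against 0.196% of its 28086 genes. Every member's adjusted p was 0.9998 with edgeR, and with 2 libraries in each group an exact permutation test cannot go below p = 0.333. In bulk RNA, a different share of cells in G2 or mitosis and a different amount of these transcripts per cell cannot be told apart.

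Although none passed, the fold changes of the members leaned above 0. The median log2 fold change of overexpression over wild type was 0.15 for the 59 genes, with quartiles of 0.02 and 0.24, against 0.01 for all genes tested. Of the 59, 46 lay above 0 (78.0%), against 51.6% of all genes. Summed over the members, expression was 1303 and 1851 FPKM in overexpression libraries 1 and 2, against 1188 and 1559 FPKM in wild type libraries 1 and 2. The sums of the groups overlap, since overexpression library 1 lies below wild type library 2. Only 5 members had both overexpression libraries above both wild type libraries in FPKM, AURKB, BIRC5, CDC20, KIF2C and TACC3, which is 8.47% of the members against 12.8% of all genes, and 0 had both below, against 7.73%.

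**Figure D1:**
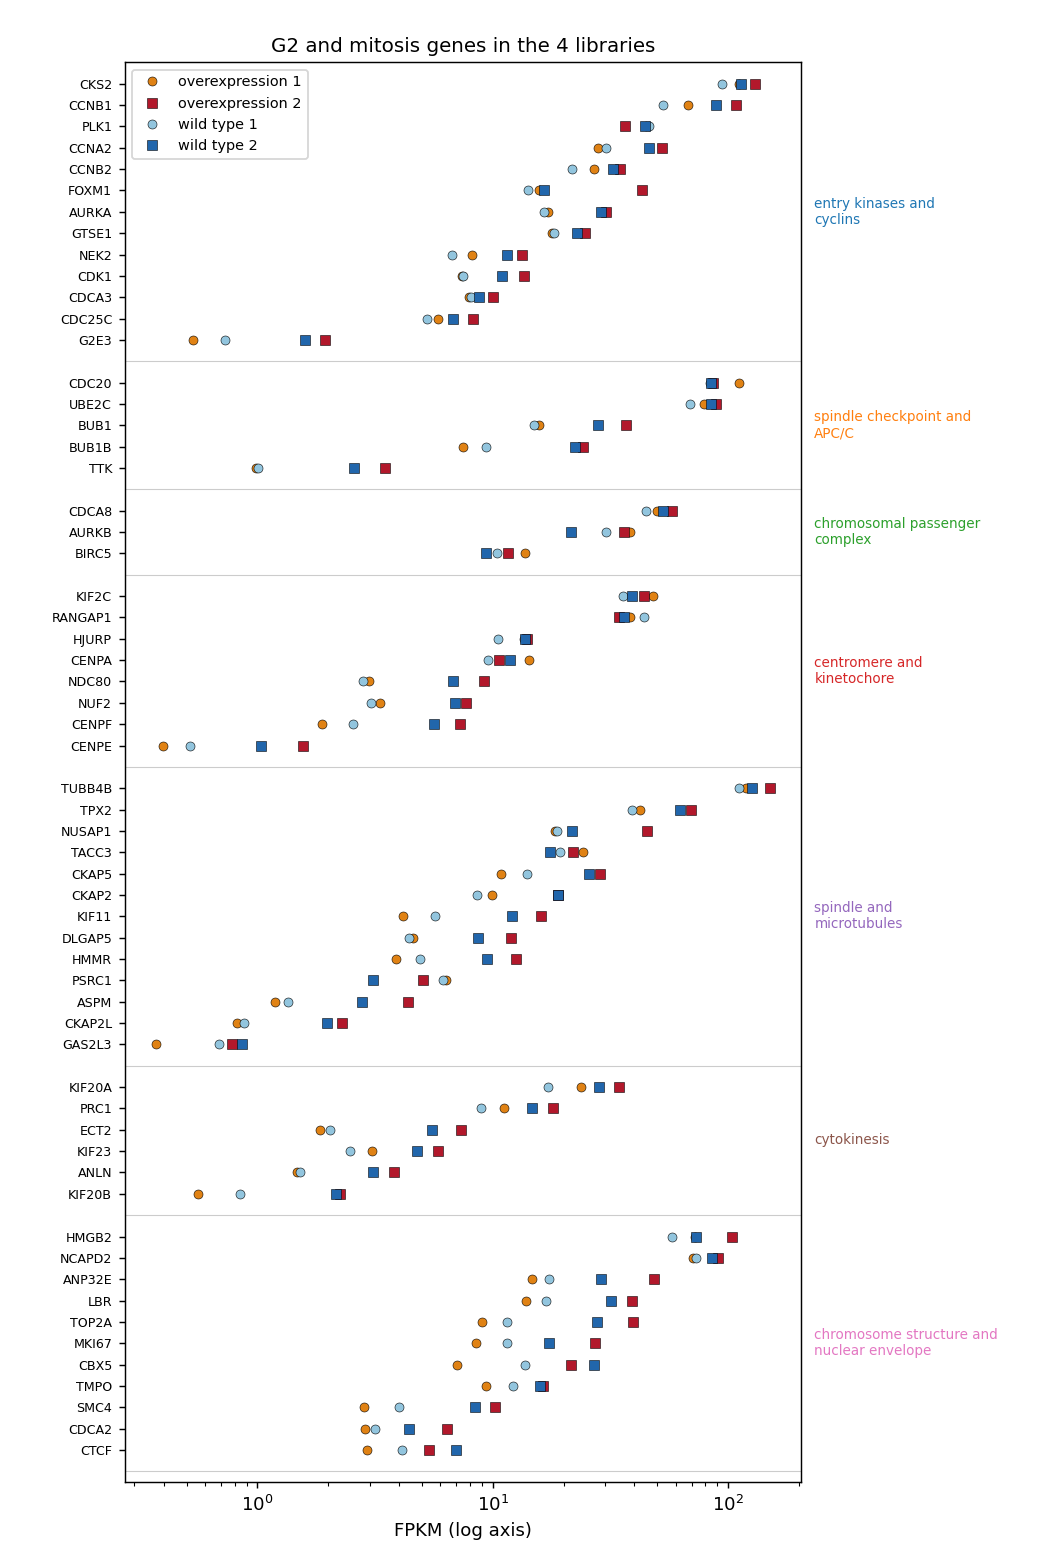
FPKM of the 59 genes in each of the 4 libraries on a log axis, grouped by role, with a point for each gene and library and colours for genotype and number. For most genes the libraries numbered 2 sit above those numbered 1 in both genotypes, while only AURKB, BIRC5, CDC20, KIF2C and TACC3 have both overexpression libraries above both wild type libraries.

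Within replicate numbers, the lean lay in the libraries numbered 2 in log2 CPM. After a smooth over transcript GC content and length the medians were 0.10 within number 1 and 0.12 within number 2. Among the members a relation to length remained within number 1 after it, with Spearman's rho of -0.45. The median difference in log2 CPM of overexpression minus wild type was 0.18 within number 2, where 45 members lay higher in overexpression and 14 lower. It was -0.01 within number 1, where 28 lay higher and 31 lower. The corresponding medians over all genes were 0.00 and -0.01. Members higher in overexpression within both numbers numbered 22 (37.3%, against 26.4% of all genes), and members lower within both numbered 8 (13.6%, against 27.2%). A further 23 were lower within number 1 and higher within number 2, and 6 were the other way round (AURKA, CDC20, CENPA, CKAP2, HJURP and UBE2C). These differences are scaled by edgeR's TMM factors. On the FPKM scale, which divides by library totals alone, 27 members were higher within both numbers and 5 lower. Of all 18873 genes, 5369 were higher within both numbers on that scale and 3972 lower, so the background leans the same way.

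**Figure D2:**
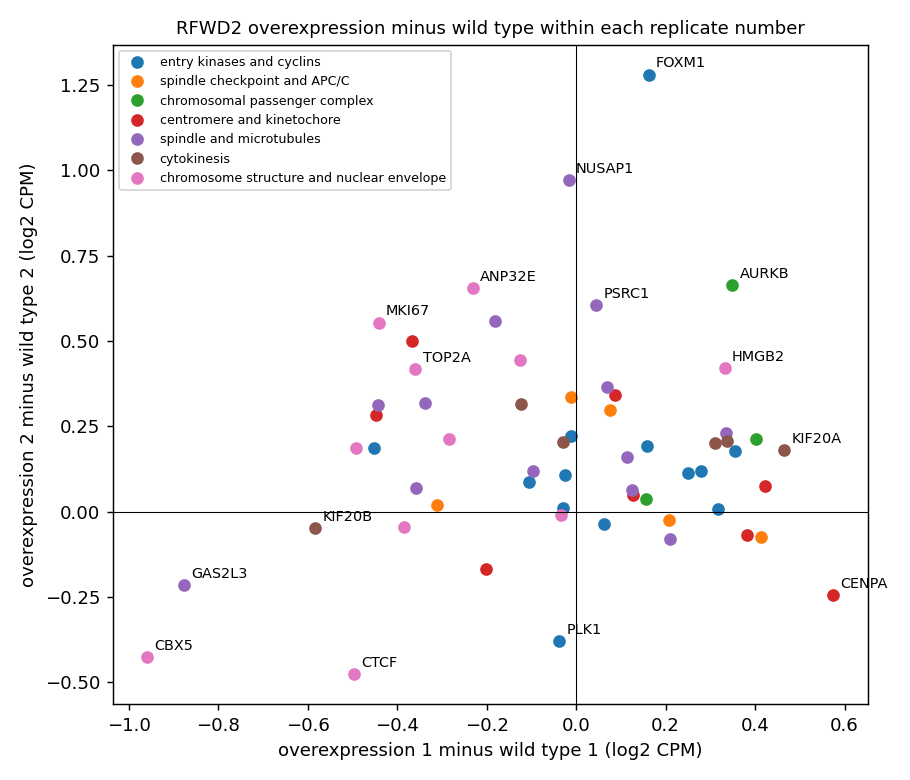
Difference in log2 CPM of overexpression minus wild type for each of the 59 genes, within number 1 on the horizontal axis and within number 2 on the vertical axis, with a point for each gene coloured by role. FOXM1 and NUSAP1 stand at the top with 1.28 and 0.97 within number 2 and little difference within number 1, and CBX5 and GAS2L3 lie lowest within number 1.

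The 13 genes of mitotic entry hold the kinases, cyclins and their regulators, and their median log2 fold change was 0.12, with 0.06 within number 1 and 0.11 within number 2. FOXM1, the transcription factor of G2 and mitosis genes (ENSG00000111206, chr12:2857681-2877155, minus strand), had 15.7 and 43.0 FPKM in overexpression libraries 1 and 2, against 14.1 and 16.6 FPKM in wild type libraries 1 and 2. Overexpression library 2 stood alone above 3 libraries that lay close together, and the groups overlap because overexpression library 1 is below wild type library 2. Its log2 fold change of 0.83 ± 0.45 (SE) was the highest of the 59, with 1.28 within number 2 and 0.16 within number 1. It was 0.17 without overexpression library 2. Means were 29.4 ± 19.3 FPKM in overexpressing cells, against 15.3 ± 1.78 FPKM in wild type cells (SD over 2 libraries per group).

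FOXM1 shares 898 bases with RHNO1, a checkpoint gene on the opposite strand, and no source used here says whether the counting used strand. RHNO1 had 10.8 and 16.8 FPKM in overexpression libraries 1 and 2, against 12.5 and 4.82 FPKM in wild type libraries 1 and 2. Its lowest library was wild type library 2, and its difference within number 2 was 1.71. FOXM1 had 17739 estimated counts in overexpression library 2 and 6926 in wild type library 2, and RHNO1 had 3747 and 1086. What part of the counts of FOXM1 came from shared reads was not tested. ITFG2, which overlaps the other end of FOXM1 by 2111 bases, differed by -0.16 within number 2. Neighbours overlap other members too, with expression of up to 124 FPKM on the opposite strand of NCAPD2, 18.9 FPKM on that of TACC3, 17.7 FPKM on that of KIF20A and 7.11 FPKM on that of CCNA2, and up to 17.2 and 8.80 FPKM on the same strand of CENPA and PRC1. How reads were shared there was not tested.

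The cyclins and their partner kinase had higher FPKM in the libraries numbered 2 in both genotypes. On that scale all genes shift up, by a median of 0.35 in overexpression and 0.25 in wild type. In log2 CPM, library 2 minus library 1 in overexpression was 0.34 for CCNB1, 0.02 for CCNB2, 0.56 for CCNA2 and 0.54 for CDK1. After the smooth over GC content and length, these were -0.07, -0.36, -0.01 and -0.21. In wild type they were then 0.19, 0.03, -0.06 and -0.22. CCNB1, which encodes cyclin B1, had 67.3 and 108 FPKM in overexpression libraries 1 and 2, against 52.7 and 89.4 FPKM in wild type libraries 1 and 2. It was higher with overexpression within each number, yet wild type library 2 exceeded overexpression library 1, and the log2 fold change was 0.25 ± 0.35 (SE). CCNB2 had 27.0 and 34.7 FPKM in the overexpression libraries and 21.7 and 32.4 FPKM in the wild type libraries. CCNA2, the cyclin of S phase and G2, had 28.1 and 52.4 FPKM in overexpressing cells, against 30.3 and 46.1 FPKM in wild type. Both cyclins had their lowest values in the libraries numbered 1. CDK1 itself had 7.41 and 13.6 FPKM in the overexpression libraries and 7.49 and 10.9 FPKM in the wild type libraries. The log2 fold changes were 0.15 ± 0.33 for CCNB2, 0.01 ± 0.37 for CCNA2 and 0.12 ± 0.39 for CDK1 (SE), each smaller than its standard error.

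The mitotic kinases PLK1 and AURKA each had a log2 fold change smaller than its standard error, so no difference between them was shown. PLK1, which drives centrosome maturation and spindle assembly, had 45.1 and 36.5 FPKM in overexpression libraries 1 and 2, against 46.4 and 44.5 FPKM in wild type libraries 1 and 2. Overexpression library 2 was the lowest, the reverse of FOXM1, and the log2 fold change was -0.18 ± 0.37 (SE). In log2 CPM, overexpression library 2 minus library 1 was -0.64 for PLK1, and -0.07 after the smooth over GC content and length. Overexpression minus wild type within number 2 was -0.38 before the smooth and -0.32 after it. AURKA, the kinase of spindle poles, had 17.2 and 30.2 FPKM in overexpressing cells, against 16.5 and 29.0 FPKM in wild type, so that both libraries numbered 2 stood above both numbered 1. Its log2 fold change was 0.01 ± 0.38 (SE). CDC25C (the phosphatase that activates CDK1), CKS2 (a CDK1-binding subunit) and NEK2 (a centrosome kinase) were higher with overexpression within both numbers, with log2 fold changes between 0.18 and 0.19. Leaving out a library turned the sign of 6 of the entry genes described so far. Such a fit leaves the numbers unbalanced between the genotypes, so the difference between numbers enters it as well. Without overexpression library 2 the log2 fold change was -0.17 for CDK1, -0.30 for CCNA2, -0.24 for AURKA, -0.0077 for NEK2 and 0.11 for PLK1, and without wild type library 1 it was -0.02 for CDK1, -0.0078 for CCNB2, -0.17 for CCNA2, -0.26 for AURKA and -0.06 for NEK2. CCNB1 kept its sign but came to 0.08 with overexpression library 2 left out and 0.01 with wild type library 1 left out.

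The 5 genes of the spindle checkpoint and the APC/C had a median log2 fold change of 0.21, with 0.08 within number 1 and 0.02 within number 2. CDC20, the activator of the APC/C (chr1:43358981-43363203, plus strand), had 112 and 86.2 FPKM in overexpression libraries 1 and 2, against 84.0 and 85.0 FPKM in wild type libraries 1 and 2. Overexpression library 1 alone stood apart, and the groups did not overlap in FPKM only because overexpression library 2 lay slightly above wild type library 2. On the TMM scale the differences were 0.41 within number 1 and -0.07 within number 2, and the log2 fold change of 0.21 ± 0.37 (SE) became -0.19 without overexpression library 1. BUB1, the checkpoint kinase at kinetochores, had 15.7 and 37.0 FPKM in overexpressing cells, against 14.96 and 28.2 FPKM in wild type. Both libraries numbered 2 were high, with overexpression library 2 the highest. Its log2 fold change was 0.22 ± 0.44 (SE), and it was -0.29 with overexpression library 2 left out and -0.08 with wild type library 1 left out. TTK and BUB1B, the checkpoint kinase MPS1 and BUBR1, followed BUB1 by number, while UBE2C, the ubiquitin-conjugating enzyme of the APC/C, kept between 68.9 and 88.9 FPKM in all 4 libraries.

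The chromosomal passenger complex was the role group in which every member lay higher with overexpression within both numbers, though none passed the test and the group holds 3 genes. AURKB, its kinase (chr17:8204733-8210600, minus strand), had 38.4 and 36.3 FPKM in overexpression libraries 1 and 2, against 30.3 and 21.5 FPKM in wild type libraries 1 and 2. Both overexpression libraries were above both wild type libraries, and wild type library 2 was the farthest from the rest. AURKB had a log2 fold change of 0.47 ± 0.40 (SE), and differences of 0.35 within number 1 and 0.66 within number 2, and the means were 37.4 ± 1.49 against 25.9 ± 6.21 FPKM (SD over 2 libraries per group). BIRC5, which encodes survivin, had 13.7 and 11.6 FPKM in overexpressing cells, against 10.4 and 9.35 FPKM in wild type, again without overlap, and its log2 fold change was 0.32 ± 0.40 (SE). Without overexpression library 1 that of BIRC5 was -0.004. CDCA8, which encodes borealin, had 49.9 and 57.9 FPKM in overexpressing cells, against 44.9 and 52.9 FPKM in wild type, with overlap between the groups and a log2 fold change of 0.10 ± 0.31 (SE).

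The 8 genes of the centromere and kinetochore had a median log2 fold change of 0.19, with 0.11 within number 1 and 0.06 within number 2. KIF2C, the kinesin that takes microtubules apart at centromeres to correct attachments, had 48.1 and 44.0 FPKM in overexpression libraries 1 and 2, against 35.9 and 39.2 FPKM in wild type libraries 1 and 2. The groups did not overlap, and the difference was 0.42 within number 1 but 0.07 within number 2, for a log2 fold change of 0.27 ± 0.34 (SE) that came to 0.0087 when overexpression library 1 was left out. CENPF had 1.87 and 7.29 FPKM in overexpressing cells, against 2.56 and 5.61 FPKM in wild type. Its libraries numbered 2 were both far above those numbered 1, and the log2 fold change of 0.07 ± 0.62 (SE) became -0.95 with overexpression library 2 left out and -0.31 with wild type library 1 left out. RANGAP1, the GTPase activator that sits at nuclear pores and kinetochores, had 38.3 and 34.3 FPKM in overexpressing cells, against 44.1 and 36.1 FPKM in wild type. It was lower with overexpression within both numbers, with -0.19 ± 0.37 (SE) as its log2 fold change, which became 0.04 with overexpression library 2 left out and 0.10 with wild type library 1 left out. CENPA, the centromeric histone, and HJURP, its chaperone, were both higher within number 1, by 0.57 and 0.38, and lower within number 2, with differences of -0.24 and -0.07. NDC80 and NUF2, partners in the complex that holds microtubules at kinetochores, had log2 fold changes of 0.26 and 0.08.

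Among the 13 spindle and microtubule genes the median log2 fold change was 0.10, with -0.02 within number 1 and 0.23 within number 2. NUSAP1, a spindle protein that binds and bundles microtubules (chr15:41332694-41381050, plus strand), had 18.5 and 45.3 FPKM in overexpression libraries 1 and 2, against 18.7 and 21.7 FPKM in wild type libraries 1 and 2. As with FOXM1, overexpression library 2 stood alone above 3 libraries of like level. NUSAP1 had a log2 fold change of 0.55 ± 0.42 (SE), differences of 0.97 within number 2 and -0.02 within number 1, and a log2 fold change of 0.0044 when overexpression library 2 was left out. TACC3, a microtubule-stabilising protein that AURKA phosphorylates, had 24.2 and 22.0 FPKM in overexpressing cells, against 19.3 and 17.6 FPKM in wild type. The groups did not overlap, with differences of 0.33 within number 1 and 0.23 within number 2 and a log2 fold change of 0.29 ± 0.35 (SE). For TACC3 the log2 fold change was 0.03 when overexpression library 1 was left out and 0.11 when wild type library 2 was. TPX2, the activator of AURKA, had 42.4 and 69.9 FPKM in overexpressing cells, against 39.0 and 62.7 FPKM in wild type. It lay higher in the libraries numbered 2, and its log2 fold change of 0.09 ± 0.35 (SE) was -0.11 with overexpression library 2 left out and -0.12 with wild type library 1 left out. GAS2L3, which links actin and microtubules, was among the scarcest members with 0.37 and 0.78 FPKM in the overexpression libraries and 0.69 and 0.86 FPKM in the wild type libraries. Its lowest library was overexpression library 1, and its log2 fold change was -0.50 ± 0.48 (SE). TUBB4B, a beta tubulin, was the most abundant member with 120 and 151 FPKM in the overexpression libraries and 111 and 127 FPKM in the wild type libraries.

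**Figure D3:**
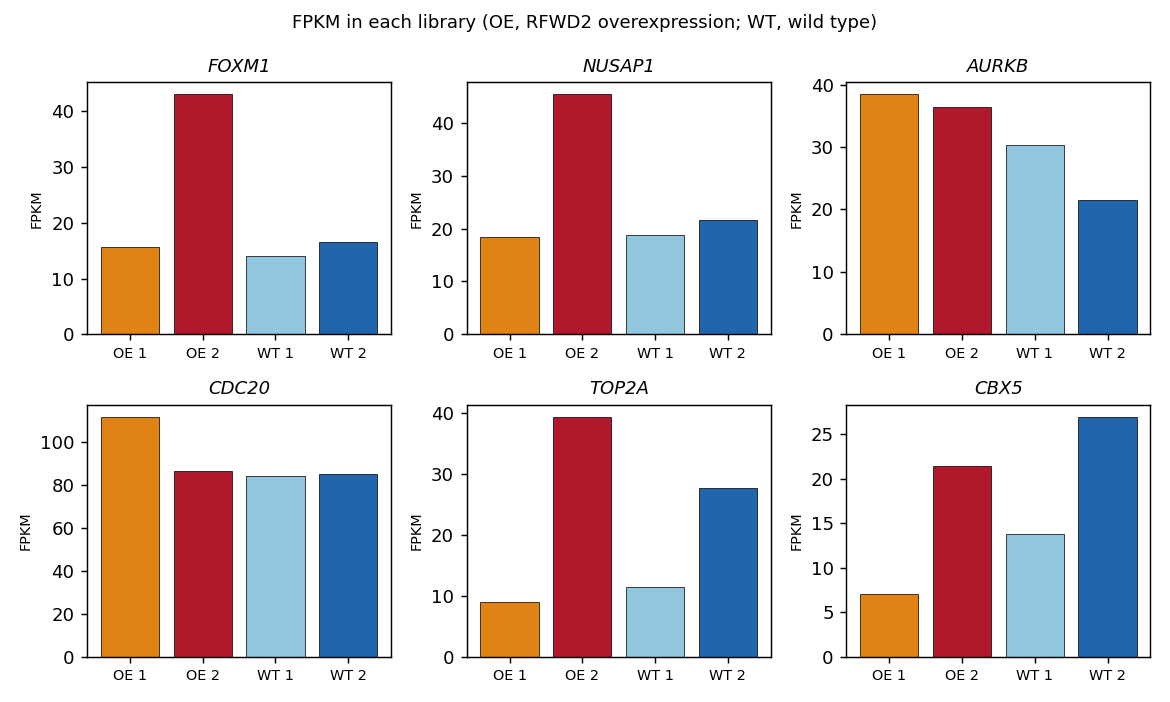
FPKM of FOXM1, NUSAP1, AURKB, CDC20, TOP2A and CBX5 in the 4 libraries, overexpression left of wild type, with a bar for each library. FOXM1 and NUSAP1 are high in overexpression library 2 alone, AURKB is higher in both overexpression libraries, CDC20 is high in overexpression library 1, and TOP2A and CBX5 are high in both libraries numbered 2.

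The 6 cytokinesis genes build the central spindle and the contractile ring, and their median log2 fold change was 0.22, with 0.14 within number 1 and 0.20 within number 2. KIF20A, a kinesin of the central spindle, had 23.7 and 34.3 FPKM in overexpression libraries 1 and 2, against 17.2 and 28.4 FPKM in wild type libraries 1 and 2. PRC1, which crosslinks the microtubules of that structure, had 11.2 and 18.1 FPKM in overexpressing cells, against 8.88 and 14.7 FPKM in wild type. Both genes, and KIF23, were higher with overexpression within each number, yet the groups overlap because wild type library 2 exceeds overexpression library 1. The log2 fold changes were 0.31 ± 0.35 for KIF20A and 0.26 ± 0.36 for PRC1 (SE). When wild type library 1 was left out they came to 0.08 and 0.04, and the median of the 6 genes to -0.15, while leaving out overexpression library 2 gave a median of -0.28. ANLN, a scaffold of the contractile ring, and ECT2, the activator of RhoA at the midzone, had log2 fold changes of 0.12 and 0.20, and KIF20B one of -0.20.

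The 11 genes of chromosome structure and the nuclear envelope had a median log2 fold change of 0.04. Before the smooth over GC content and length they had the widest split between numbers of the 7 role groups. Their medians were then -0.36 within number 1 and 0.21 within number 2. After the smooth these were -0.07 and 0.11, and those of the centromere and kinetochore genes were 0.23 and 0.05. TOP2A had 8.97 and 39.4 FPKM in overexpression libraries 1 and 2, against 11.5 and 27.7 FPKM in wild type libraries 1 and 2. MKI67, which encodes the proliferation marker Ki-67, had 8.46 and 27.1 FPKM in overexpressing cells, against 11.5 and 17.3 FPKM in wild type. For both genes overexpression library 1 was the lowest and overexpression library 2 the highest of the 4, so the wild type values lie between them. TOP2A had a log2 fold change of 0.20 ± 0.66 (SE), which was -0.95 with overexpression library 2 left out and -0.22 with wild type library 1 left out. MKI67 had 0.20 ± 0.50, which was -0.62 without overexpression library 2.

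HMGB2, a chromatin protein that bends DNA, had 72.6 and 104 FPKM in overexpression libraries 1 and 2, against 57.8 and 72.9 FPKM in wild type libraries 1 and 2. It was higher with overexpression within both numbers, by 0.33 and 0.42, and wild type library 2 exceeded overexpression library 1 by less than 1 FPKM. Its log2 fold change was 0.38 ± 0.31 (SE) and stayed between 0.29 and 0.46 when each library was left out. Below 0 lay CBX5, the heterochromatin protein HP1 alpha (chr12:54230942-54280133, minus strand), with 7.07 and 21.4 FPKM in the overexpression libraries and 13.8 and 27.0 FPKM in the wild type libraries. It was lower with overexpression within both numbers, with differences of -0.96 and -0.43 and a log2 fold change of -0.60 ± 0.52 (SE), the lowest of the 59. CTCF, the insulator protein of chromatin loops, had 2.92 and 5.36 FPKM in overexpressing cells, against 4.13 and 6.99 FPKM in wild type. Its differences of -0.50 within number 1 and -0.48 within number 2 were close to each other, and its log2 fold change was -0.49 ± 0.40 (SE). SMC4 of condensin, the lamin B receptor LBR and the lamina protein TMPO each had overexpression library 1 as the lowest library.

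The larger pattern in the members was between library numbers. In FPKM, both libraries numbered 2 lay above both numbered 1 for 50 of the 59 genes (84.7%), against 44.4% of all genes. On the TMM scale the median difference of library 2 minus library 1 was 0.56 in overexpression and 0.48 in wild type, against 0.04 and 0.01 for all genes. On this scale 41 members were higher in library 2 in both genotypes (69.5%, against 38.7% of all genes), and 11 were lower in both (18.6%, against 36.4%). On the FPKM scale all genes shift up, by a median of 0.35 in overexpression and 0.25 in wild type, and the members by 0.90 and 0.72. The 11 that were lower on the TMM scale are AURKB, BIRC5, CDC20, CDCA3, CDCA8, KIF2C, PLK1, PSRC1, RANGAP1, TACC3 and TUBB4B, and on the FPKM scale 6 members were lower in library 2 in both genotypes. Mitochondrially encoded genes moved with the number as well, at 4.96% of counts in overexpression library 2 and 7.46% in overexpression library 1, and at 4.27% in wild type library 2 and 7.68% in wild type library 1. Their part in the result was not tested.

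The difference between numbers ran with the base composition of the transcripts. Over the 59 members, Spearman's rho of library 2 minus library 1 with transcript GC content was -0.80 in overexpression and -0.81 in wild type, against -0.56 and -0.49 over 18811 genes. These points share their libraries and are not independent replicates. The 15 members of lowest GC content (32.9% to 39.1%), among them CENPE, ASPM, KIF11, CDK1 and TOP2A, had medians of 1.50 in overexpression and 0.82 in wild type, and all 15 were higher in library 2 in both genotypes. The 15 of highest GC content (50.0% to 59.4%), among them AURKB, CDC20, PLK1, TACC3 and FOXM1, had medians of -0.42 and -0.14, and 11 of them were lower in library 2 in both genotypes. Transcript length moved with it too, with rho of 0.69 in overexpression and 0.55 in wild type. The members' median GC content was 43.2% against 48.9% for all genes, and their median length 3201 against 2631 bases.

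**Figure D4:**
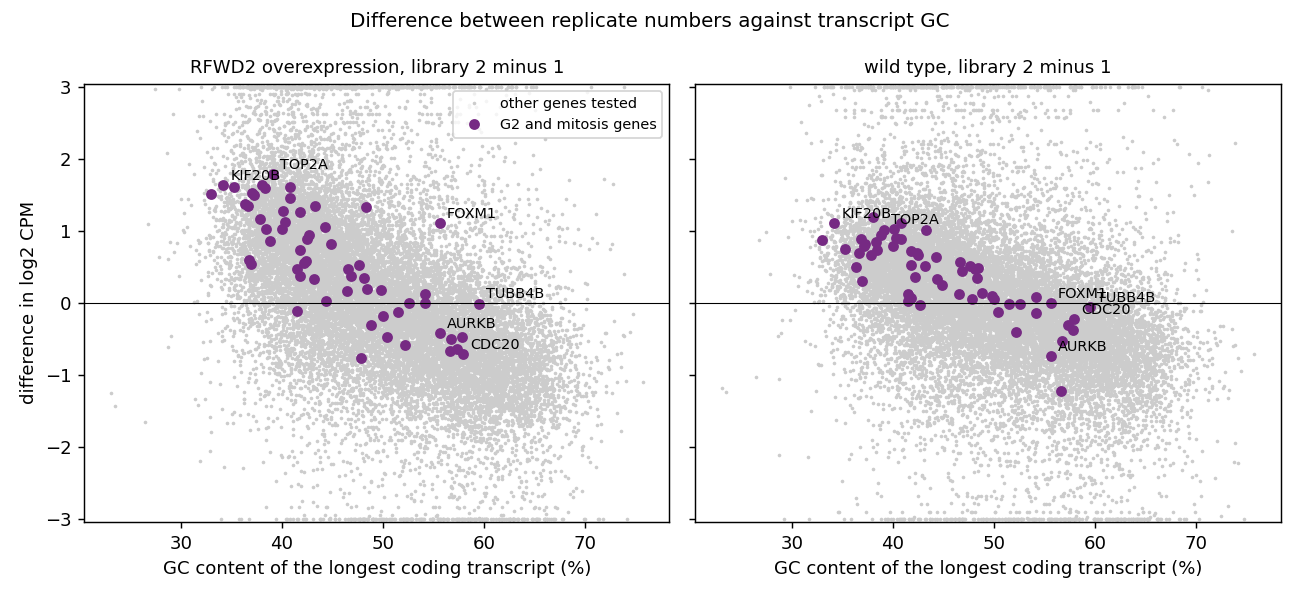
Difference in log2 CPM of library 2 minus library 1 against transcript GC content in percent, for overexpression on the left and wild type on the right, with the 59 members as coloured points over all other genes in grey, clipped at 3 in either direction. The members fall from above 0 at low GC content to below 0 at high GC content in both genotypes, with rho of -0.80 and -0.81.

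With a smooth over GC content and length taken out of each library, the members' medians of library 2 minus library 1 were 0.20 in overexpression and 0.18 in wild type. The medians of all genes were then 0.06 and 0.04. The smooth did not remove every relation among the members. Spearman's rho with length was still 0.42 in overexpression and 0.32 in wild type, and with GC content -0.24 and -0.20. The median absolute difference was 0.29 in overexpression and 0.24 in wild type after this step, against 0.67 and 0.51 before it. The comparison with wild type kept its lean, with a median log2 fold change of 0.15, and the medians within numbers 1 and 2 became 0.10 and 0.12. Within number 2, FOXM1 had 1.32 and NUSAP1 0.95 after the step. For FOXM1, library 2 minus library 1 was then 1.49 in overexpression and 0.24 in wild type. For NUSAP1 it was 0.47 in overexpression, against 0.95 before the step, and -0.41 in wild type, against -0.03 before it. TOP2A had 0.30 within number 2 and -0.07 within number 1 after it, against 0.42 and -0.36 before it. All 5 members whose groups did not overlap in FPKM, AURKB, BIRC5, CDC20, KIF2C and TACC3, are among the 15 of highest GC content.

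The library that stood farthest from the mean of the other 3 was an overexpression library for most members, as it was for most of all genes. It was overexpression library 1 for 24 members (40.7%, against 39% of all genes), below the others for 15 of them and above for 9. Overexpression library 2 was farthest for 19 (32.2%, against 25.1%), above the others for all but PLK1. Wild type library 1 was farthest for 12 (20.3%, against 16.4%) and below the others for 10 of these, and wild type library 2 for 4 (6.78%, against 19.5%), all below. The share of overexpression library 1 thus lay near the background before any smooth. After the smooth over GC content and length, the counts were 15, 20, 16 and 8 in the same order. Over all 18873 genes they were then 6407, 4439, 3588 and 4439. After this step the library most often farthest was overexpression library 2 among the members and overexpression library 1 among all genes.

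The genes behind these counts differed in role. Overexpression library 2 stood above the mean of the others by 1.22 for FOXM1, 1.21 for TOP2A, 1.16 for ECT2 and 1.15 for ASPM (log2 CPM). Its difference from wild type library 2 alone was 1.28 for FOXM1, but 0.42 for TOP2A, 0.32 for ECT2 and 0.56 for ASPM. Overexpression library 1 stood below the mean of the others, at -1.30 for KIF20B and CBX5 and -1.13 for CENPF. It stood above that mean by 0.62 for CENPA, 0.60 for BIRC5 and 0.59 for CDC20. Wild type library 1 was the low one for NUF2, CKAP2, KIF23, KIF20A, CCNB1, PRC1 and NEK2, so these genes exceeded it in 3 libraries. The low library for PSRC1 and AURKB was wild type library 2, at -1.03 and -0.83. The members' median log2 fold change of 0.15 was 0.36 when overexpression library 1 was left out and -0.24 when overexpression library 2 was. Leaving out wild type library 1 or 2 gave -0.05 or 0.37. Each such fit leaves the numbers unbalanced between the genotypes, and most members differed by number. These fits therefore cannot show which library set the sign of the genotype difference. Of the 59 members, 42 changed sign when at least 1 of the libraries was left out. That count, and the medians by role that follow, mix the difference between numbers with that between genotypes. By role, leaving out overexpression library 2 gave medians of -0.62 for chromosome structure, -0.34 for the spindle, -0.29 for the checkpoint and -0.19 for the kinetochore, against 0.05 for mitotic entry and 0.59 for the passenger complex.

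**Figure D5:**
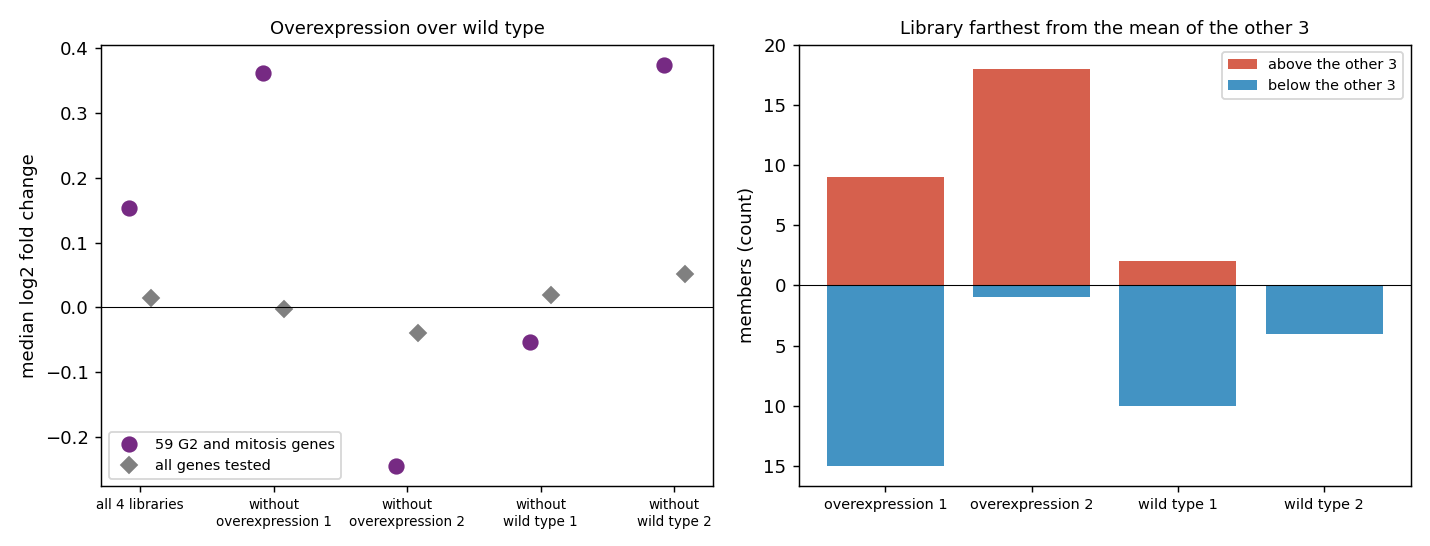
Left, the median log2 fold change of overexpression over wild type for the 59 genes (circles) and for all genes tested (diamonds), with all 4 libraries and with each left out, where the members run from -0.24 to 0.37. Right, the number of members for which each library lies farthest from the mean of the other 3, above (upward bars) or below (downward bars), with overexpression library 2 above for 18 of its 19 genes.

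Members with and without CHR letters in the promoter stood farthest apart in the difference between the overexpression libraries. The median of library 2 minus library 1 in overexpression was 0.87 for the 37 members with CHR letters and 0.47 for the 13 without, and in wild type it was 0.51 with and 0.48 without. These values are without the smooth over transcript GC content and length, with which this difference ran among the members. Whether the CHR letters bear on it apart from GC content and length was not tested. The 37 members with CHR letters had a median log2 fold change of 0.12 and the 13 without had 0.19. Within number 2 the medians were 0.19 with and 0.12 without, and within number 1 they were -0.03 with and 0.21 without. CENPF and TOP2A differed by 1.62 and 1.79 between overexpression libraries 2 and 1, CCNB2 by 0.02 and CDC20 by -0.71, values that were known when these 4 were picked for printing.

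Genes of the same pathway outside the 59 did not pass the test either. By edgeR, 0 of 59 further mitotic genes, 0 of 15 core subunits of the APC/C, 0 of 11 genes of the DREAM and MuvB complexes, 0 of 11 cohesin genes and 0 of 43 S phase genes were called. Each list's median turned its sign or moved by more than its own size when some library was left out. These fits are unbalanced by number too, so they mix the difference between numbers with that between genotypes. The further mitotic genes had a median log2 fold change of 0.01, with 31 of the 59 above 0, against 46 of the members. Within both numbers 7 of them were higher with overexpression and 17 lower, against 22 and 8 of the members. Their median was 0.25 and -0.48 with overexpression library 1 or 2 left out, and -0.26 and 0.24 with wild type library 1 or 2 left out. Of the 59, 5 had both overexpression libraries above both wild type libraries, a smaller share than the 12.8% of all genes. Of these, PIMREG had 2.31 and 1.27 FPKM in overexpression libraries 1 and 2, against 0.91 and 0.89 FPKM in wild type libraries 1 and 2, and PTTG1, which encodes securin, had 88.3 and 80.7 against 60.7 and 61.4 FPKM. Both are among those 5, with log2 fold changes of 0.99 ± 0.57 and 0.44 ± 0.34 (SE). The S phase genes had a median of -0.11, with -0.44 within number 1 and 0.05 within number 2, and overexpression library 1 was the farthest and low for 28 of the 43. That median was 0.32 with overexpression library 1 left out and -0.67 with overexpression library 2 left out. The DREAM and MuvB genes had a median of -0.17, with -0.17 and -0.15 within numbers 1 and 2, and it was -0.04 and -0.51 with overexpression library 1 or 2 left out, and -0.44 and 0.01 with wild type library 1 or 2 left out. E2F4, a repressor subunit of DREAM, had 10.4 and 19.2 FPKM in the overexpression libraries and 18.7 and 21.2 FPKM in the wild type libraries, a log2 fold change of -0.51 ± 0.36 (SE). The cohesin genes had a median of -0.09, which was 0.38 and -0.99 with overexpression library 1 or 2 left out. The APC/C core had a median of -0.03, which was -0.16 with overexpression library 2 left out and 0.06 with wild type library 2 left out.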

How the data were processed

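RNA of 4 libraries of ARP1 cells was poly(A)-selected and sequenced as paired ends, per the labels' protocols, whose text also speaks of adipose material. The deposited table holds per-gene columns of counts and of FPKM, per the file headers. The deposited counts are taken here as estimated counts, since 35.4% to 36.0% of values from 1 to 19 lie on multiples of 4; all were whole. Per the submitters' processing notes, StringTie 1.3.0, HISAT2 2.0 and Bowtie 0.12.2 were used, with no roles stated. The build named there is a mouse one, while all 58825 identifiers are human. No source used here says how shared reads were assigned. Coordinates are the table's and those of printed promoters GRCh38.p14. The members, lists and tests were chosen with earlier results of these data known.

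The test was edgeR 4.0.16 (R 4.3.3), quasi-likelihood, with TMM factors, default filtering and Benjamini-Hochberg adjustment over 18873 genes, two-sided at 0.05, on all 4 libraries. It was also run on simulated libraries that were drawn independently. Those had no likeness by number and no relation to GC content or length, so that run does not cover these features. Each standard error (SE) was derived from the test, as the absolute log2 fold change divided by the square root of its F statistic. Within-number values are differences of log2 CPM (prior count 2). Lists are described by counts and medians with no set test. Alternatives were DESeq2 1.42.0, limma 3.58.1 on log2(FPKM + 1) and log2(FPKM + 0.1), RLE factors, no filter, counts divided by 4, a block and leaving out each library. GC and length offsets (loess span 0.5 per library, GENCODE transcript matched for 18811 genes) were added after seeing the data.

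Named members are 15 chosen by name, the 2 of smallest p in each of 7 role groups, those whose FPKM did not overlap between groups, and the 3 highest and 3 lowest fold changes, 25 in all. In each further list at most 2 genes were named.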

Additional observations from a re-analysis of the deposited data

How the results depend on the processing

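No member was called under any of the alternatives tried, DESeq2, limma, the replicate block and each left-out library included, though limma with a minimum mean FPKM of 1 tested 57 of the 59 members, not CENPE and GAS2L3. Over all genes, DESeq2 called 55, edgeR without a filter 8 and the fits without 1 library 73 to 183, against 0 in the reported fit. The members' median log2 fold change of 0.15 was 0.10 with the replicate block, 0.13 with the replicate block and GC and length offsets, and 0.14 to 0.16 under the other alternatives that kept all 4 libraries. It ran from -0.24 to 0.37 when 1 library was left out, and a library left alone in its group was taken to vary like the other group. Such a fit is also unbalanced by number, so the difference between numbers enters it. With GC and length offsets, chosen after seeing the data, library 2 minus library 1 came to 0.20 in overexpression and 0.18 in wild type, against 0.56 and 0.48 without them. Of the 25 named members, 12 kept their sign under every alternative run for them (GAS2L3 was not tested by limma with that minimum) and 11 changed it only when 1 library was left out. CCNA2 was -0.008 with the replicate block. CENPF was -0.0798 with the replicate block, -0.0292 with limma on log2(FPKM + 0.1) and -2.584e-05 with the replicate block and GC and length offsets. With 1 library left out, CDK1 ran from -0.17 to 0.36, CCNB2 from -0.0078 to 0.33, CCNA2 from -0.30 to 0.26, PLK1 from -0.54 to 0.11 and AURKA from -0.26 to 0.31. BIRC5 ran from -0.004 to 0.59, CDC20 from -0.19 to 0.53, BUB1 from -0.29 to 0.59, TOP2A from -0.95 to 0.83, MKI67 from -0.62 to 0.71, CENPF from -0.95 to 0.66, TPX2 from -0.12 to 0.33 and RANGAP1 from -0.46 to 0.10. Among those that kept their sign, KIF2C ran from 0.0087 to 0.49, TACC3 from 0.03 to 0.51, CCNB1 from 0.01 to 0.53, KIF20A from 0.08 to 0.57, PRC1 from 0.04 to 0.52, AURKB from 0.15 to 0.89 and CBX5 from -1.36 to -0.11. The replicate numbers are not stated to mark a shared culture or day, so the block is given here only. Reads shared with overlapping genes or pseudogenes could not be separated: 16 members overlap a gene on their own strand and 15 have pseudogenes by name. Standard errors of the named members, from 0.31 to 0.66, limit what 2 libraries per group can show.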
